A study of Mus musculus with 16 samples.

Results

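To describe how the genes of transforming growth factor beta (TGF-beta) signalling are expressed in mouse muscle stem cells (MuSCs), 10 genes were followed: the ligand genes Tgfb1, Tgfb2 and Tgfb3, the receptor genes Tgfbr1, Tgfbr2, Tgfbr3 and Acvr2b, and the SMAD genes Smad2, Smad3 and Smad7. They were chosen by name, as listed TGF-beta and myostatin pathway genes, with earlier results of these data known. All 10 were among the 24411 genes of the deposited table. RNA of MuSCs sorted from hindlimb muscle was sequenced, with 4 libraries in each of 4 groups. The mice were on a C57BL/6 background and carried, in the knockout groups, a floxed TRF2 allele (gene Terf2, a telomere-binding protein) deleted by a tamoxifen-induced Cre under the MuSC gene Pax7. Tamoxifen treatment began when the mice were young adults, aged 8 to 10 weeks. The labels call the other genotype wild type (control here), and the sources used here do not state whether those mice carried Cre or the floxed allele. Of each genotype, 4 libraries came from uninjured muscle and 4 from mice 3 days after 10 µl of notexin, a myotoxic snake venom protein, was injected into the tibialis anterior muscle (3 DPI). Because Cre is driven by Pax7, other cell types that pass the sort keep an intact gene. Sorted cells were negative for CD45, CD31, CD11b and Sca1 and positive for VCAM (or CD34) and α7-integrin, so CD45 and CD11b, which mark white blood cells, were selected against. The design text speaks of biological replicates without saying which animals they came from, so p-values measure the spread between these libraries.

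Library totals ranged from 620506 to 1351130 estimated counts. The third library labelled TRF2 knockout at 3 DPI stood apart, with 15387 genes detected against at least 19996 in each other library, so the values of its group in the results below are also given without it where it moved them most. Terf2 itself was lower in every uninjured TRF2 MuSC-cKO library (27.2 to 58.7 CPM, counts scaled to a common library size) than in every uninjured control library (66.3 to 94.5 CPM), a log2 difference of -0.62 ± 0.27 (SE) that did not pass the threshold used here (adjusted p = 0.199). At 3 DPI Terf2 did not follow the labels: it measured 52.6, 21.9, 66.9 and 89.7 CPM in the libraries labelled TRF2 knockout and 35.5 to 48.6 CPM in control libraries. The injured groups are therefore named by their labels. In bulk RNA, fewer cells of a type and less RNA per cell cannot be told apart. The name MuSCs is used here for the sorted cells as labelled, whatever cell types they held. In control libraries at 3 DPI, summed myeloid markers (4600 to 5859 CPM) were above summed MuSC markers (872.5 to 1080 CPM). In those labelled TRF2 knockout these sums were 1951 to 5350 and 476.5 to 637.7 CPM. A change in these libraries is therefore not assigned to a cell type.

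TGF-beta ligands are secreted in a latent complex and released in the matrix. An active ligand dimer binds the type II receptor Tgfbr2, which recruits and phosphorylates the type I receptor Tgfbr1, while the co-receptor Tgfbr3 (betaglycan) presents ligand, above all TGF-beta 2, to Tgfbr2. Acvr2b is the type II receptor for myostatin and activins, the muscle-growth inhibitors of the family. Both branches phosphorylate Smad2 and Smad3, which enter the nucleus with Smad4, and Smad7 is the feedback inhibitor that they induce. In muscle the pathway is known for restraining MuSC proliferation and myogenic differentiation and for driving fibrosis.

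Coordinates are those of the GENCODE annotation on GRCm38, where each gene is protein coding. Tgfb1 lies at chr7:25687002-25705077 on the plus strand, Tgfb2 at chr1:186622792-186705989 (minus) and Tgfb3 at chr12:86056745-86079041 (minus). Tgfbr1 lies at chr4:47353222-47414931 (plus), Tgfbr2 at chr9:116084293-116175360 (minus), Tgfbr3 at chr5:107106570-107289629 (minus), Acvr2b at chr9:119402118-119434995 (plus) and Smad3 at chr9:63646767-63757994 (minus).

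Promoters are printed for the ligand and the receptor that rose after injury in control MuSCs, Tgfb1 and Tgfbr1, and for a ligand and a SMAD that fell, Tgfb2 and Smad3. Each is the 250 bases before the gene's first start site in RefSeq on GRCm38.p6, read 5′ to 3′ on the gene's strand (chr7:25686752-25687001 plus, chr4:47352972-47353221 plus, chr1:186705990-186706239 minus and chr9:63757995-63758244 minus). Capitals mark CAGAC or its other-strand form GTCTG, the SMAD box that Smad3 binds.
Tgfb1: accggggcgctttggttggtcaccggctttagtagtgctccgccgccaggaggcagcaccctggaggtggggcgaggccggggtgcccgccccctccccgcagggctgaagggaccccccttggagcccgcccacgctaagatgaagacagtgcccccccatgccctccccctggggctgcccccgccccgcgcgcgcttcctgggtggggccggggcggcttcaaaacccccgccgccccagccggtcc
Tgfbr1: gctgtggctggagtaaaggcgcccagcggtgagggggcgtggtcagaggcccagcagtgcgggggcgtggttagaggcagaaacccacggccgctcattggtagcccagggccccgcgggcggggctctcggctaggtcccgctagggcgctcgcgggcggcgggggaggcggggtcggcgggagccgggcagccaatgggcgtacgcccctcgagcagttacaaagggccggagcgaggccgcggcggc
Tgfb2: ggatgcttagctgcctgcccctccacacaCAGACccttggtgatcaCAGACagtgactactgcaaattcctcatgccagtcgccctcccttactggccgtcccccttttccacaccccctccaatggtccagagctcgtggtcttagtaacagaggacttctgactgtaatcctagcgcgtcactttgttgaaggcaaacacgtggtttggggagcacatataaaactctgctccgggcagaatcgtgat
Smad3: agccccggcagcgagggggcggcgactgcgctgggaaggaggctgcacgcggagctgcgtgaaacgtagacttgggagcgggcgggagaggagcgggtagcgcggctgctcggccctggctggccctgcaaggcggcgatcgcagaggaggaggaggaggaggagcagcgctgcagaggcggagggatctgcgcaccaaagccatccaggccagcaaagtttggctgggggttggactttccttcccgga
The Tgfb2 window held 2 SMAD boxes, and those printed for Tgfb1, Tgfbr1 and Smad3 held 0. Of the windows not printed, those of Tgfbr2, Acvr2b and a second Tgfbr1 start site held 1 each. Of all 32851 promoter windows of this length, 42.2% held at least 1 such match. TGANTCA, an AP-1 site that reads the same on both strands, was in 0 of these 7 windows and in 6.75% of all windows. GGGCGG or CCGCCC, a GC box, occurred 5 times in the Tgfb1 window, 3 times in that of Acvr2b, 2 times each in the first Tgfbr1 window and that of Smad3 and 0 times in those of Tgfb2, Tgfbr2 and the second Tgfbr1 start, against 32.7% of all windows with at least 1. Promoter windows were used for 6 of the 10 genes, and Tgfb3, Tgfbr3, Smad2 and Smad7 are named without one.

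Levels were first compared between genes per transcript length, as an abundance per length, taken from the second deposited table and divided by each library's total without the TMM factor that the CPM carry. These factors ran from 0.782 to 0.968 in uninjured control libraries and from 0.951 to 1.22 in the injured libraries, so such levels are compared between genes of a group, and across groups as shares or ratios. In uninjured control MuSCs the co-receptor Tgfbr3 had the highest mean of the 10 genes, 483 ± 74.5 (SD, n = 4), followed by Tgfb3 at 186 ± 24.2. The ranges of these genes did not overlap each other or the next gene, Tgfbr2, at 85.6 ± 16.7. From Tgfbr2 down through Smad3, Tgfb2, Smad7, Acvr2b, Tgfb1 and Tgfbr1 to Smad2, at 22.2 ± 4.88, each gene overlapped its neighbour in the order. In control MuSCs at 3 DPI the order was led by Tgfb1 at 280 ± 9.80 per length, then Tgfbr2 at 86.1 ± 2.45 and Tgfbr3 at 64.7 ± 11.2. Neither of the first 2 overlapped the next gene, whereas Tgfbr3 overlapped Tgfb3 (59.9 ± 4.76), and Tgfb3 overlapped Tgfbr1 (53.5 ± 7.03). The libraries labelled TRF2 knockout had the same first 4 genes in the same order as controls at 3 DPI, with Tgfb1 at 220 ± 52.4 (222.5 ± 63.8 without the third library, n = 3, where Tgfb3 and Smad7 stood above Tgfbr3). Uninjured TRF2 MuSC-cKO MuSCs began as uninjured controls did, with Tgfbr3 at 446 ± 64.3, Tgfb3 at 129 ± 27.1 and Tgfbr2 at 79.7 ± 6.74, and Smad7 came next at 74.4 ± 20.2.

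**Figure D1:**
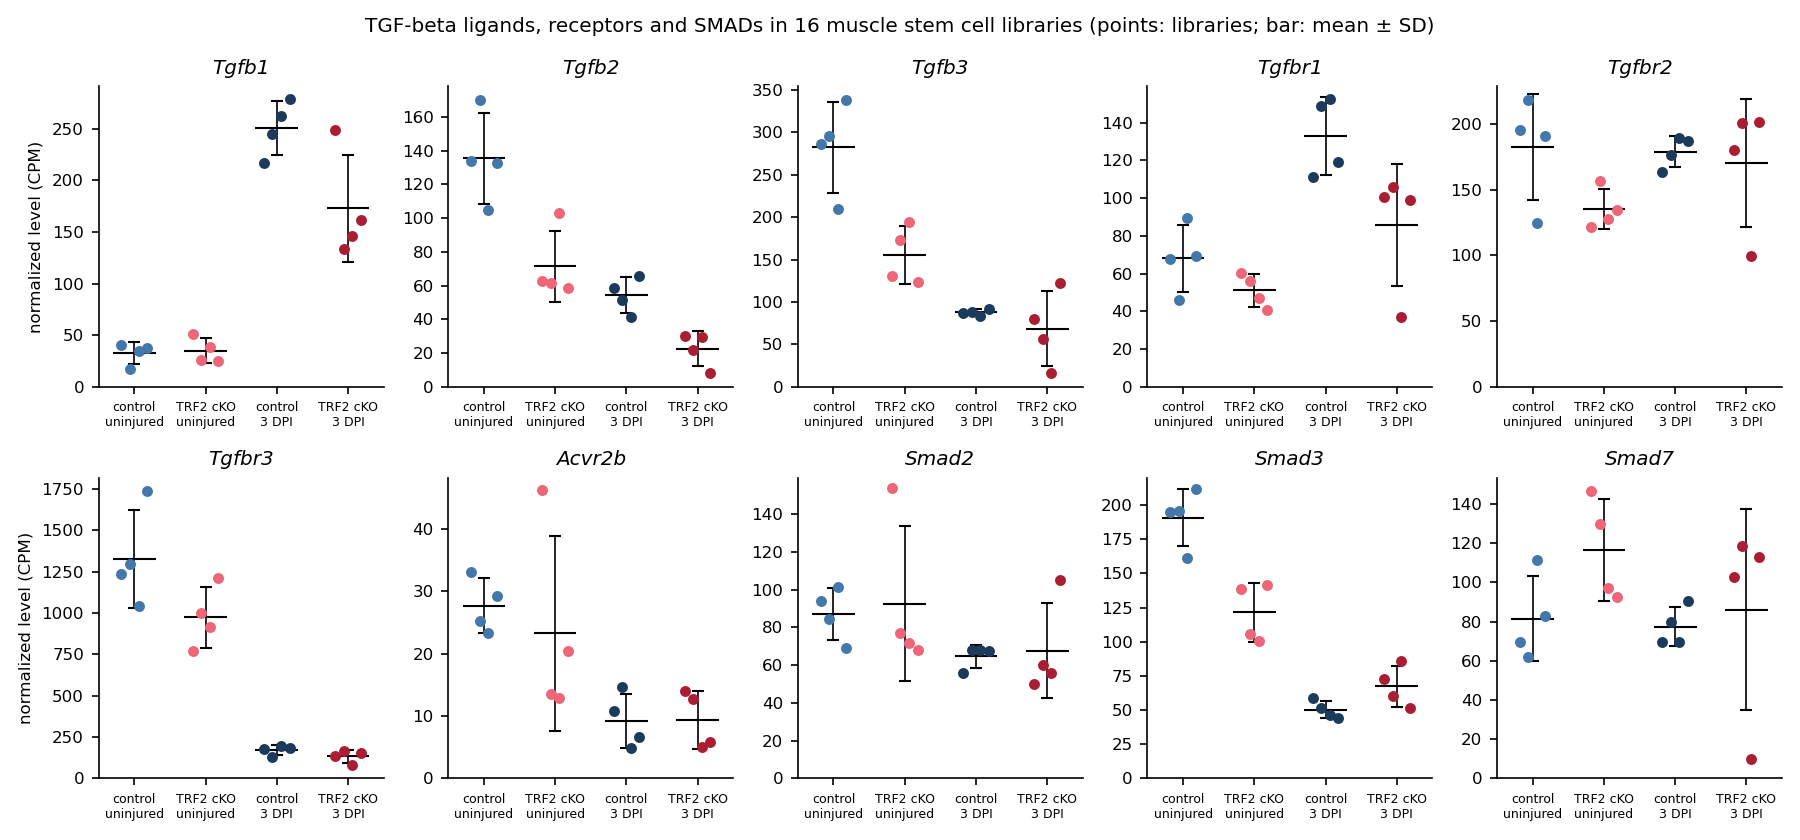
Normalized level in CPM (vertical axis, from 0, its own scale in each panel) of the 10 genes in the 16 libraries, by group; points are libraries and bars the mean ± SD of 4. Tgfb1 and Tgfbr1 are higher, and Tgfb2, Tgfb3, Tgfbr3, Acvr2b and Smad3 lower (as is Smad2, which was not called), in every control library at 3 DPI than in every uninjured control library.

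The first comparison asked how the genes differ between uninjured control MuSCs and control MuSCs at 3 DPI. A gene was called when edgeR's quasi-likelihood test gave an adjusted p under 0.02 over all genes tested and the fold change exceeded 1.5. Of the 10 genes, 2 were called higher and 5 lower at 3 DPI. Over all 15356 genes tested, 20.2% were called, 10.8% higher and 9.46% lower (1652 and 1452 genes, or 1989 and 1066 when scaled by library size alone, where the median of all genes was 0.23). The median log2 difference was -0.83 over the 10 genes and 0.07 over all genes tested.

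The ligand Tgfb1, the main isoform made by immune cells and platelets and held in the matrix, measured 40.2, 17.1, 34.9 and 38.0 CPM in uninjured control libraries. At 3 DPI it measured 216, 245, 263 and 278 CPM. Every injured library was more than 5 times the highest uninjured library, and the fitted difference was 2.99 ± 0.23 on the log2 scale (7.93-fold, adjusted p = 4.25e-14). Tgfb2 measured 134, 170, 105 and 133 CPM in uninjured and 58.7, 51.5, 41.3 and 65.8 CPM in injured control libraries. Tgfb2 thus fell in all injured libraries without overlap, by 1.28 ± 0.22 on the log2 scale (adjusted p = 1.36e-05). Tgfb3 measured 286, 295, 209 and 338 CPM before injury and 86.5, 88.5, 83.6 and 92.2 CPM at 3 DPI. It fell by 1.64 ± 0.20 on the log2 scale (adjusted p = 4.35e-09), and the injured libraries lay close together.

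The 3 ligand genes therefore exchanged places. Per length, their sum was 286 ± 25.6 in uninjured control libraries and 366 ± 11.8 at 3 DPI, or 333 ± 55.4 and 368.5 ± 25 with the TMM factors applied, a scaling chosen after the data were seen. The difference between the sums was not tested. Tgfb1 made up 12.6% ± 4.50 of that sum before injury and 76.4% ± 2.38 at 3 DPI, and Tgfb3 65.0% ± 3.00 and 16.4% ± 1.21 (SD, n = 4 in each). The plot of the summed ligand level shows the same exchange in both genotypes.

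**Figure D2:**
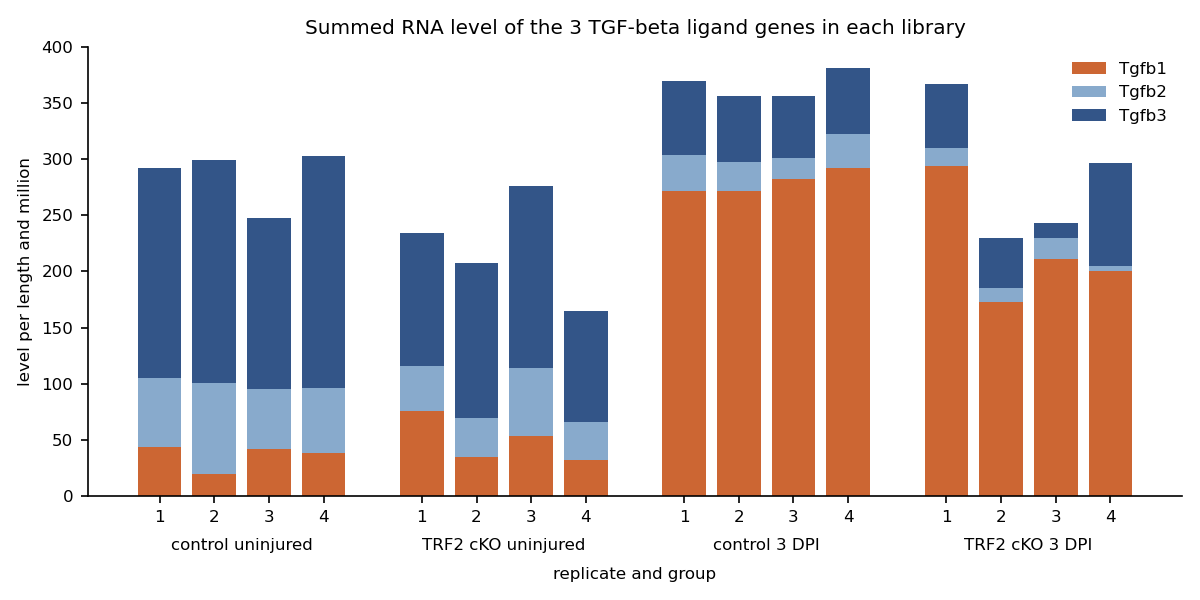
Level per length (vertical axis, from 0) of Tgfb1, Tgfb2 and Tgfb3, stacked, in each of the 16 libraries (horizontal axis, replicate within group). Tgfb3 is the tallest part in all 8 uninjured libraries and Tgfb1 in all 8 libraries at 3 DPI, with means of 76.4% (control) and 77.4% (labelled TRF2 knockout, or 74.3% without the third library) of the sum.

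Markers of macrophages and other myeloid cells moved with Tgfb1. All 10 markers listed (Ptprc, Itgam, Adgre1, Csf1r, Cd68, Lyz2, C1qa, Cx3cr1, Ms4a7 and Tyrobp) were called higher at 3 DPI in control libraries. Their summed level was 83.8 to 121 CPM in uninjured and 4600 to 5859 CPM in injured control libraries. Ptprc (CD45) and Itgam (CD11b), among the antigens selected against in the sort, averaged 13.4 and 15.5 CPM before injury and 227 and 393 CPM at 3 DPI. Tyrobp was listed at 0 in some uninjured control libraries, and no defining marker was at 0 in an injured control library. The part of these cells in the level of Tgfb1 was not tested. Over the same comparison 8 of 9 MuSC markers were called lower and the other, Cxcr4, higher, with a summed level of 3196 to 4783 CPM before injury and 872 to 1080 CPM at 3 DPI. The smooth muscle and pericyte sum was 1775 to 2941 CPM before and 470 to 661 CPM after injury, mostly Notch3, the 1 gene called of 4 tested. The fibroadipogenic sum was 4429 to 6923 and 2516 to 3961 CPM. Of its genes, 2 were called lower (Col3a1 and Dpt) and 3 higher (Pdgfra, Lum and Ly6a, which encodes Sca1, also selected against). The part of these shifts in the fall of Tgfb2, Tgfb3, Tgfbr3, Acvr2b and Smad3 was not tested either.

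**Figure D3:**
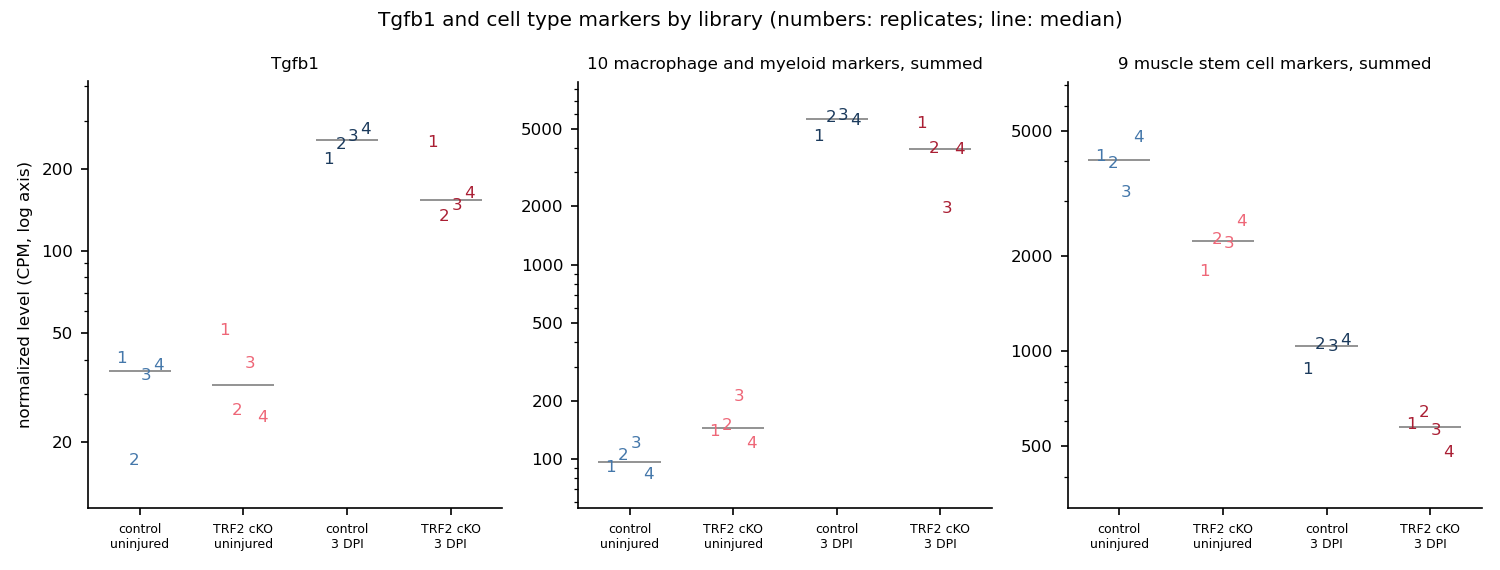
Level in CPM (vertical log axes) of Tgfb1, of 10 macrophage and myeloid markers summed and of 9 MuSC markers summed, in the 4 groups; digits are replicates and lines medians. The injured libraries are higher for Tgfb1 and the macrophage sum and lower for the MuSC sum than the uninjured libraries, in both genotypes.

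Among the receptors, the direction differed from gene to gene. Tgfbr1, the type I receptor, measured 67.9, 45.9, 89.5 and 69.2 CPM in uninjured control libraries and 111, 149, 152 and 119 CPM at 3 DPI. It rose by 1.01 ± 0.22 on the log2 scale (2.02-fold, adjusted p = 0.00043), but the call was lost when all 16 libraries shared a fit (adjusted p = 0.0326) and in the second deposited table (0.0239). Tgfbr2, the type II receptor, measured 196, 218, 124 and 191 CPM before injury and 164, 176, 189 and 187 CPM after. Its groups overlapped, and the log2 difference was 0.02 ± 0.19 (adjusted p = 0.971). Tgfbr3, the co-receptor, measured 1232, 1297, 1039 and 1735 CPM before injury and 178, 131, 194 and 183 CPM at 3 DPI. It fell by 2.91 ± 0.21 on the log2 scale (7.50-fold lower, adjusted p = 2.28e-15). Acvr2b, the myostatin and activin receptor, measured 33.1, 25.2, 23.3 and 29.2 CPM and then 10.8, 14.6, 4.92 and 6.58 CPM. This gene rested on 5 to 15 counts in each injured library and was called lower at -1.56 ± 0.44 (adjusted p = 0.00578), a call lost without the first uninjured control library (0.0236), without injured replicate 3 (0.0313) or 4 (0.0241), with all 16 libraries in one fit (0.0687) or when scaled by library size alone (0.0211). Per length, Tgfbr3 made up 80.9% ± 2.49 of the summed Tgfbr1, Tgfbr2 and Tgfbr3 level before injury and 31.6% ± 4.14 at 3 DPI, while Tgfbr2 went from 14.4% ± 2.72 to 42.2% ± 1.62.

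Of the SMADs, Smad3 changed and its partner Smad2 and its inhibitor Smad7 did not pass the threshold. Smad3 measured 195, 195, 162 and 212 CPM in uninjured control libraries and 58.7, 51.5, 46.2 and 44.4 CPM at 3 DPI. It fell by 1.90 ± 0.21 on the log2 scale (3.72-fold lower, adjusted p = 6.87e-10), with every injured library under every uninjured one. Smad2 measured 93.8, 84.6, 101 and 69.2 CPM and then 55.6, 68.1, 67.9 and 67.5 CPM. Its groups did not overlap, like those of 6 of the 10 genes in this direction (12.3% of all genes tested) and 2 in the other (12%), yet the log2 difference of -0.38 ± 0.23 did not pass (adjusted p = 0.253). Smad7 measured 69.7, 62.1, 112 and 82.9 CPM before and 69.5, 79.7, 69.8 and 90.5 CPM after injury, with a log2 difference of -0.03 ± 0.23 (adjusted p = 0.958). Per length, the ratio of Smad7 to Smad3 was 0.366 to 0.794 in uninjured and 1.36 to 2.34 in injured control libraries, and that of Smad2 to Smad3 was 0.187 to 0.359 and 0.541 to 0.870.

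The same question was asked by comparing the libraries labelled TRF2 knockout at 3 DPI with uninjured TRF2 MuSC-cKO libraries. Here 1 of the 10 genes was called higher, Tgfb1, and 1 lower, Tgfbr3, against 4.04% of 14578 genes tested (2.43% higher and 1.61% lower). The biological coefficient of variation was 0.523, against 0.276 in the control comparison. In simulated data with the spread of these groups, 0% of genes given a log2 difference of 1 were recovered, against 29.8% in the control comparison. For a log2 difference of 2 these shares were 19.5% and 82.2%, so fewer calls do not show smaller changes. Tgfb1 measured 50.9, 26.0, 38.6 and 24.5 CPM in uninjured and 249, 134, 146 and 162 CPM in injured libraries. Every injured library was higher, and the log2 difference was 2.23 ± 0.34 (4.68-fold, adjusted p = 0.000899). Without the third injured library it was 2.33 (adjusted p = 1.37e-06). The macrophage and myeloid markers were again higher beside it, with 8 of 10 called. Their summed level was 121 to 210 CPM before and 1951 to 5350 CPM after injury (3934 to 5350 CPM without the third injured library). Adgre1 and Cx3cr1 were the markers not called, and Cx3cr1 was at 0 in 1 injured library. Tgfbr3 measured 767, 998, 917 and 1209 CPM before and 133, 163, 79.3 and 155 CPM after injury. It fell by 2.94 ± 0.27 on the log2 scale (adjusted p = 1.54e-05) and by 2.73 without the third injured library (9.41e-10). Beside it 6 of 9 MuSC markers were called lower, with a sum of 1794 to 2581 CPM before and 476.5 to 637.7 CPM after injury. The smooth muscle and pericyte sum was 1506 to 2224 CPM before and 517.6 to 641.2 CPM after, with 1 of 4 genes called. The part of these markers in the values was not tested.

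Of the 10 genes, 4 were lower in every library labelled TRF2 knockout at 3 DPI than in every uninjured TRF2 MuSC-cKO library, as were 6.7% of all genes tested. These were Tgfbr3 and, not called by edgeR in the fit of these groups alone, Tgfb2, Tgfb3 and Smad3. Tgfb1, higher in all, compares with 6.9%. Tgfb2 measured 62.7, 61.3, 103 and 58.6 CPM and then 30.4, 21.9, 29.8 and 8.15 CPM, a log2 difference of -1.72 ± 0.47 (adjusted p = 0.0438). Smad3 measured 138, 106, 100 and 142 CPM and then 72.4, 60.0, 85.5 and 51.3 CPM, with -0.91 ± 0.29 (adjusted p = 0.0971). Both were called when the third injured library was left out, Tgfb2 at -1.85 (adjusted p = 0.00215) and Smad3 at -1.03 (0.0154), where 1316 genes in all were called in place of 589. With that library kept, Tgfb2 was called by DESeq2 (adjusted p = 0.00632), limma's robust test (0.00991) and edgeR on all 16 libraries in one fit (0.00177). Tgfb2 was called in 5 of 18 alternatives. Tgfb3 was called by limma's robust test (adjusted p = 0.0189). Tgfb3 measured 130, 172, 195 and 124 CPM and then 79.4, 56.5, 16.1 and 122 CPM. The low value of 16.1 CPM belonged to the third injured library, and the log2 difference was -1.25 ± 0.44 with it (adjusted p = 0.141) and -0.89 without it (0.0407). Tgfbr1 measured 60.4, 56.1, 47.2 and 40.9 CPM and then 100, 106, 37.2 and 99.0 CPM, overlapping through that library alone, with a log2 difference of 0.67 ± 0.37 (adjusted p = 0.423), or 0.95 without it (0.0359). Tgfbr2, Acvr2b, Smad2 and Smad7 had log2 differences of 0.27, -1.37, -0.52 and -0.51, with adjusted p from 0.374 to 0.723. Without the third injured library these were 0.48, -1.14, -0.41 and -0.11 (adjusted p = 0.248, 0.32, 0.558 and 0.884). As each library was left out, the difference of Smad2 ran from -0.77 to -0.17 and that of Acvr2b from -1.625 to -0.80.

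**Figure D4:**
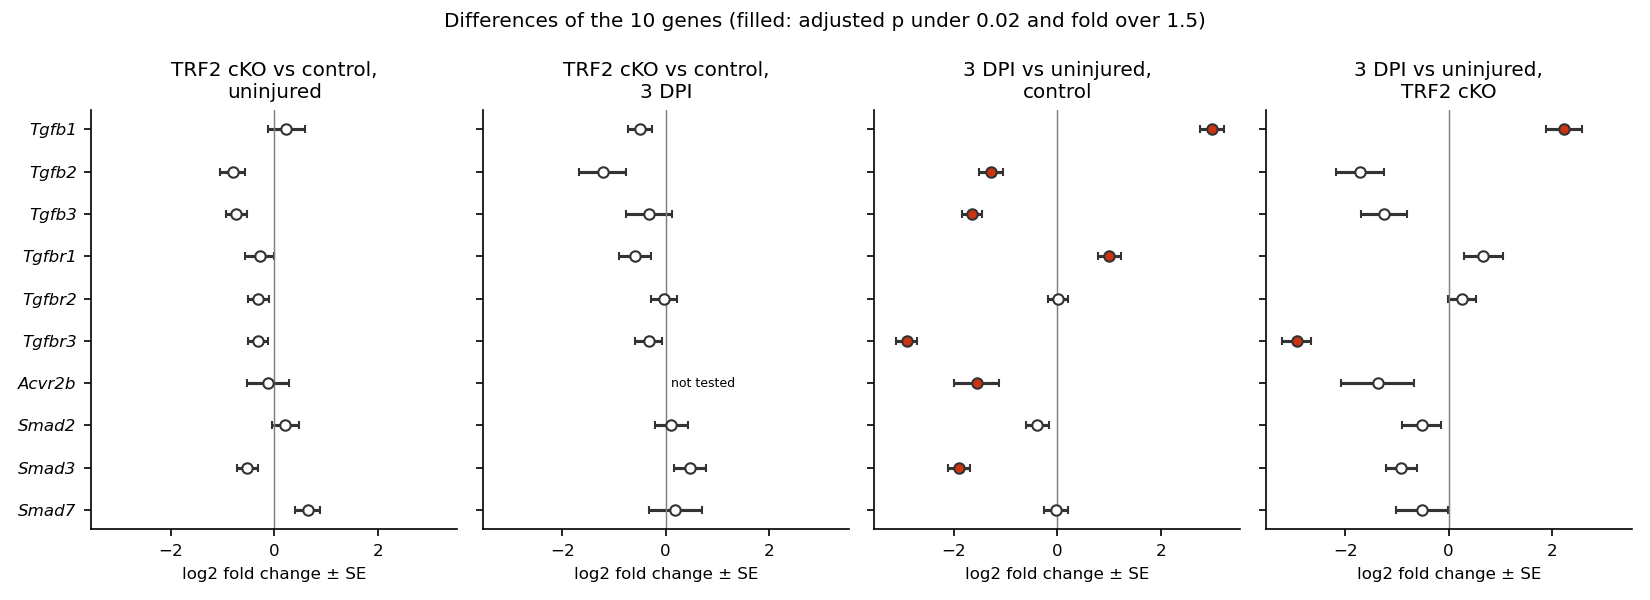
Log2 fold change ± SE (horizontal axes) of the 10 genes in the 4 comparisons between groups of 4 libraries, except Acvr2b between genotypes at 3 DPI, which was not tested. Filled points were called (adjusted p under 0.02 and fold over 1.5). Filled points are 7 in the control injury comparison, 2 in the injury comparison of libraries labelled TRF2 knockout and 0 in both genotype comparisons.

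The next comparison asked what differs with TRF2 deletion in uninjured MuSCs; it shares its libraries with the injury comparisons above. None of the 10 genes was called (0 of 10) by edgeR's test, against 3.22% of 14048 genes tested (0.584% higher and 2.63% lower; 82 and 370 genes, or 176 and 212 when scaled by library size alone, where the median of all genes was 0.24). At an unadjusted p under 0.05, 3 were lower and 1 was higher, and 19.5% of all genes were past that level. DESeq2 called 2 of the 10 (and 114 genes higher and 509 lower in all), limma-voom 1 (71 and 367) and limma's robust test 1 (151 and 351). The ligands Tgfb2 and Tgfb3 lay nearest to the threshold. Tgfb2 measured 62.7, 61.3, 103 and 58.6 CPM in TRF2 MuSC-cKO libraries against 105 to 170 CPM in controls, a log2 difference of -0.80 ± 0.23 (adjusted p = 0.0319). Over 19 alternative analyses its adjusted p was 0.0101 to 0.222, and 6 of them called it. Tgfb3 measured 130, 172, 195 and 124 CPM against 209 to 338 CPM in controls, a difference of -0.73 ± 0.20 (adjusted p = 0.0206). This gene was called in 9 of 19 alternatives, with adjusted p from 0.00474 to 0.315. These include the analyses in which the third TRF2 MuSC-cKO or the third control library was left out, where both genes were called.

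Smad3 was the other gene whose groups did not overlap, at 138, 106, 100 and 142 CPM against 162 to 212 CPM in controls. Its log2 difference was -0.52 ± 0.20 (adjusted p = 0.129). Such non-overlap in the lower direction was seen for 3 of the 10 genes and for 9.18% of all genes tested. Smad7 was the only gene of the 10 with a higher level at an unadjusted p under 0.05, measuring 147, 130, 97.3 and 92.6 CPM against 62.1 to 112 CPM, with a difference of 0.65 ± 0.24 (adjusted p = 0.105). Per length the ratio of Smad7 to Smad3 was 0.753 to 1.41 in TRF2 MuSC-cKO and 0.366 to 0.794 in control libraries, so 1 library of each group lay in the other's range. The receptors Tgfbr1, Tgfbr2, Tgfbr3 and Acvr2b differed by -0.28, -0.30, -0.32 and -0.12, with adjusted p from 0.363 to 0.906. As each library was left out, Tgfbr1 ran from -0.45 to -0.13, Tgfbr2 from -0.46 to -0.22 and Tgfbr3 from -0.45 to -0.21. The value of Acvr2b was -0.73 without the first TRF2 MuSC-cKO library and 0.078 without the second. Tgfb1 differed by 0.24 ± 0.36 (adjusted p = 0.75; -0.032 without the first TRF2 MuSC-cKO library) and Smad2 by 0.22 ± 0.25 (0.669), and for Smad2 the first TRF2 MuSC-cKO library, at 154 CPM, set the sign (-0.17 without it). Markers of MuSCs moved in the same comparison: 6 of 9 were called lower, and their sum was 1794 to 2581 CPM in TRF2 MuSC-cKO against 3196 to 4783 CPM in control libraries. Other marker sums also did not overlap. The fibroadipogenic sum was 921.5 to 1918 against 4429 to 6923 CPM in controls, mostly Col3a1, which was called lower with Dpt, while Pdgfra, also of that list, was not (1.09, adjusted p = 0.0248). The myeloid sum was 121.2 to 210.4 against 83.85 to 120.9 CPM and the Schwann sum 328 to 450 against 229 to 299 CPM, with 0 called in each. The part of these markers in the values of Tgfb2, Tgfb3 and Smad3 was not tested.

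At 3 DPI the libraries labelled TRF2 knockout were compared with control libraries, and 0 of the 9 genes tested were called by edgeR, as were 0 of all 14559 genes (0%). In simulated data with the spread of these groups, 1.1% of genes given a log2 difference of 1 were recovered in this comparison. For a log2 difference of 2 the share was 24.4%, so the lack of calls does not show equal levels. At an unadjusted p under 0.05 stood 1 of the 9, Tgfb2, and 9.36% of all genes. Without the third library labelled TRF2 knockout 16 genes were called in all, 0 of them among the 10, and with it DESeq2 called 22. DESeq2, limma-voom and limma's robust test called 0 of the 9 as well. Tgfb2 measured 30.4, 21.9, 29.8 and 8.15 CPM against 58.7, 51.5, 41.3 and 65.8 CPM in controls. All 4 libraries were lower than every control library, with a log2 difference of -1.22 ± 0.46 (adjusted p = 0.479; exact permutation test of log2 CPM, two-sided, p = 0.0286, the smallest possible with 4 against 4). Without the third library it was -1.40 (adjusted p = 0.154). Tgfbr1 was also lower without overlap, at 100, 106, 37.2 and 99.0 CPM against 111 to 152 CPM, with -0.59 ± 0.32 (adjusted p = 0.578) and -0.37 without the third library (0.544). The 2 genes compare with 4.87% of all genes that did not overlap in this direction. The summed MuSC markers were also lower without overlap, at 476.5 to 637.7 against 872.5 to 1080 CPM, with 0 of 9 called, and their part in these values was not tested.

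The remaining genes overlapped between the genotypes at 3 DPI. Tgfb1 measured 249, 134, 146 and 162 CPM against 216 to 278 CPM in controls, with a log2 difference of -0.49 ± 0.24 (adjusted p = 0.54; -0.45 without the third library, 0.431). The summed macrophage and myeloid markers were 1951 to 5350 (3934 to 5350 without the third library) against 4600 to 5859 CPM. Smad3 differed by 0.47 ± 0.32 (adjusted p = 0.66), or by 0.31 without the third library (0.705). Smad7 measured 103, 119, 9.92 and 113 CPM, so that 3 of 4 libraries were above every control library (69.5 to 90.5 CPM) and the third, apart in genes detected, was below all. Its log2 difference was 0.19 (adjusted p = 0.929), or 0.54 without that library (0.345). Acvr2b was not tested, since its counts were below the filter. Among the 4 libraries that share a code in their names (2 of each genotype), 0 of the 9 genes were called, and the log2 difference was -1.06 for Tgfb2. No code was held by both genotypes among uninjured libraries, so code and genotype cannot be told apart within those groups. In each injury comparison 1 code was held by uninjured replicate 4 and by injured replicates 3 and 4.

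The fits were repeated with the name code as a term, an alternative chosen after the data were seen; what the code stands for is not given in the sources used here. After injury in control MuSCs, Tgfb1, Tgfb3, Tgfbr3 and Smad3 were still called by edgeR, at 2.92 ± 0.43, -1.85 ± 0.30, -3.11 ± 0.29 and -2.13 ± 0.33 on the log2 scale (adjusted p from 3.49e-09 to 3.84e-05). Tgfb2 (-1.21 ± 0.37, adjusted p = 0.0265), Tgfbr1 (1.06 ± 0.40, 0.0887) and Acvr2b (-2.22 ± 0.71, 0.0355) kept their direction and were not called. In all, 1485 genes were called there in place of 3104. After injury in libraries labelled TRF2 knockout, Tgfbr3 was called (-3.41 ± 0.44, adjusted p = 0.00918) and Tgfb1 was not (2.60 ± 0.66, 0.147), with 15 genes higher and 22 lower in all. Between genotypes at 3 DPI, 0 genes were called and 0 of the 9 were at an unadjusted p under 0.05, as were 1.37% of all genes. The uninjured genotypes could be compared only through the injured libraries, in one fit of all 16. That fit called 0 genes in place of 452, with 4.96% of all genes and 0 of the 10 at an unadjusted p under 0.05. In it Tgfb2 was at -0.74 ± 1.01, Tgfb3 at -1.47 ± 1.07 and Smad3 at -0.90 ± 0.69 (adjusted p = 1 for each), and Terf2 at -2.39 ± 0.94 (0.991). For all of these genes the standard errors were larger than without the code.

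Whether injury changed the difference between genotypes was tested over all 16 libraries. None of the 10 genes was called (0 of 10) by edgeR, against 3 of 16822 genes (0.0178%). At an unadjusted p under 0.05 stood Smad3 alone of the 10, and 5.74% of all genes. Without the third library labelled TRF2 knockout 13 genes were called in all, and limma's robust test called 79 with it. DESeq2 and both limma tests called 0 of the 10. For Smad3 the difference between the labelled genotypes was -0.52 in uninjured libraries and 0.47 at 3 DPI, neither past the threshold, and the fitted interaction was 1.08 ± 0.34 on the log2 scale (adjusted p = 0.582 by edgeR). Over 26 alternatives this value ran from 0.83 to 1.19 and the adjusted p from 0.0521 to 1. For the other 9 genes the adjusted p was at least 0.93.

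The other genes of the pathway were described by 5 lists, 61 genes in all: ligands and latency, receptors, extracellular antagonists, SMADs and their regulators, and targets. These lists too were chosen with earlier results of these data known. In control MuSCs, 29 of the 61 were called after injury, 14 higher and 15 lower, against 20.2% of all genes tested (10.8% higher and 9.46% lower). Of 15 ligand and latency genes, 5 were called higher and 4 lower. The latent TGF-beta binding proteins Ltbp1, Ltbp3 and Ltbp4, which store the latent complex in the matrix, fell by 2.21 ± 0.21, 1.76 ± 0.22 and 2.65 ± 0.21 on the log2 scale. Ltbp4, which had the highest mean log2 CPM of the list over the 16 libraries, went from 1114 to 2083 CPM to 171 to 258 CPM. In contrast, Ltbp2, which does not bind latent TGF-beta, rose by 1.48 ± 0.31. Of the genes that process, release or hold the latent ligand, 4 rose: Thbs1, whose product activates latent TGF-beta 1, by 3.12 ± 0.20, Nrros, which tethers latent TGF-beta 1 on myeloid cells and microglia, by 2.61 ± 0.27, the integrin subunit Itgav by 1.10 and the proprotein convertase Furin by 0.73 (called in 13 of 19 alternatives). Itgb6, Itgb8 and Lrrc32, of the same kind, were not called (-0.06, 0.43 and 0.19). Inhbb, an activin subunit, was the other gene that fell, by 1.30. The part of the macrophage and MuSC marker shifts given above in these differences was not tested.

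Of 8 further receptors, 1 was called in control MuSCs, against 20.2% of all genes tested. It was the type I receptor Acvrl1, higher by 1.25 ± 0.27 (adjusted p = 0.000259). Eng, a co-receptor and the gene of highest mean in that list, had 0.68 ± 0.22 (adjusted p = 0.0207). Of 6 antagonists, 2 were called, both higher: the proteoglycans Dcn (1.59 ± 0.24) and Bgn (0.99 ± 0.19), which bind TGF-beta in the matrix. Of 13 SMADs and regulators, 1 was higher, the co-repressor Tgif1 (0.79), and 3 were lower: Smad4 (-0.70 ± 0.22), the common partner SMAD; Zfyve9 (-1.69 ± 0.34), the anchor SARA that presents Smad2 and Smad3 to the receptor; and Nedd4l (-1.73 ± 0.20), a ubiquitin ligase of activated Smad2 and Smad3. Ski, a co-repressor and the gene of highest mean in the list, had -0.56 ± 0.19 (adjusted p = 0.0216). Smad4 was called in 10 and Tgif1 in 9 of 19 alternatives.

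Of 19 targets, 5 rose and 8 fell in control MuSCs after injury, where 10.8% of all genes tested were called higher and 9.46% lower. Genes known to be induced by TGF-beta thus moved in both directions. The matrix genes Tgfbi, Fn1 and Postn rose by 3.58 ± 0.23, 3.47 ± 0.21 and 2.78 ± 0.23 on the log2 scale, beside Timp1 and Tpm1 (0.99). Timp1, a metalloproteinase inhibitor, rested on 1 to 6 counts in each uninjured library and 10 to 61 in each injured one. Junb, an AP-1 subunit and the target of highest mean log2 CPM over the 16 libraries, fell by 1.96 ± 0.19, from 3330 to 4146 CPM to 746 to 965 CPM. Cyr61 (now Ccn1) fell by 1.95 ± 0.20, and the smooth muscle genes Tagln and Acta2 by 1.36 and 0.80. Pmepa1, a feedback inhibitor of SMAD activation, fell by 1.49 ± 0.22. Snai2 and Ctgf (now Ccn2) fell by 1.24 and 0.75. Of these, Acta2 was called in 14 of 19 alternatives and Snai2 and Ctgf in 12 each; with all 16 libraries in one fit the adjusted p of Ctgf was 0.665. The myeloid, MuSC and smooth muscle marker sums given above moved in the same comparison, and their part in the values of the receptors, antagonists, SMADs and targets was not tested. With the name code as a term, 17 of the 29 pathway genes were called: Ltbp1, Ltbp3, Ltbp4, Thbs1, Nrros, Itgav, Inhbb, Dcn, Bgn, Nedd4l, Tgfbi, Fn1, Postn, Tpm1, Junb, Cyr61 and Pmepa1.

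**Figure D5:**
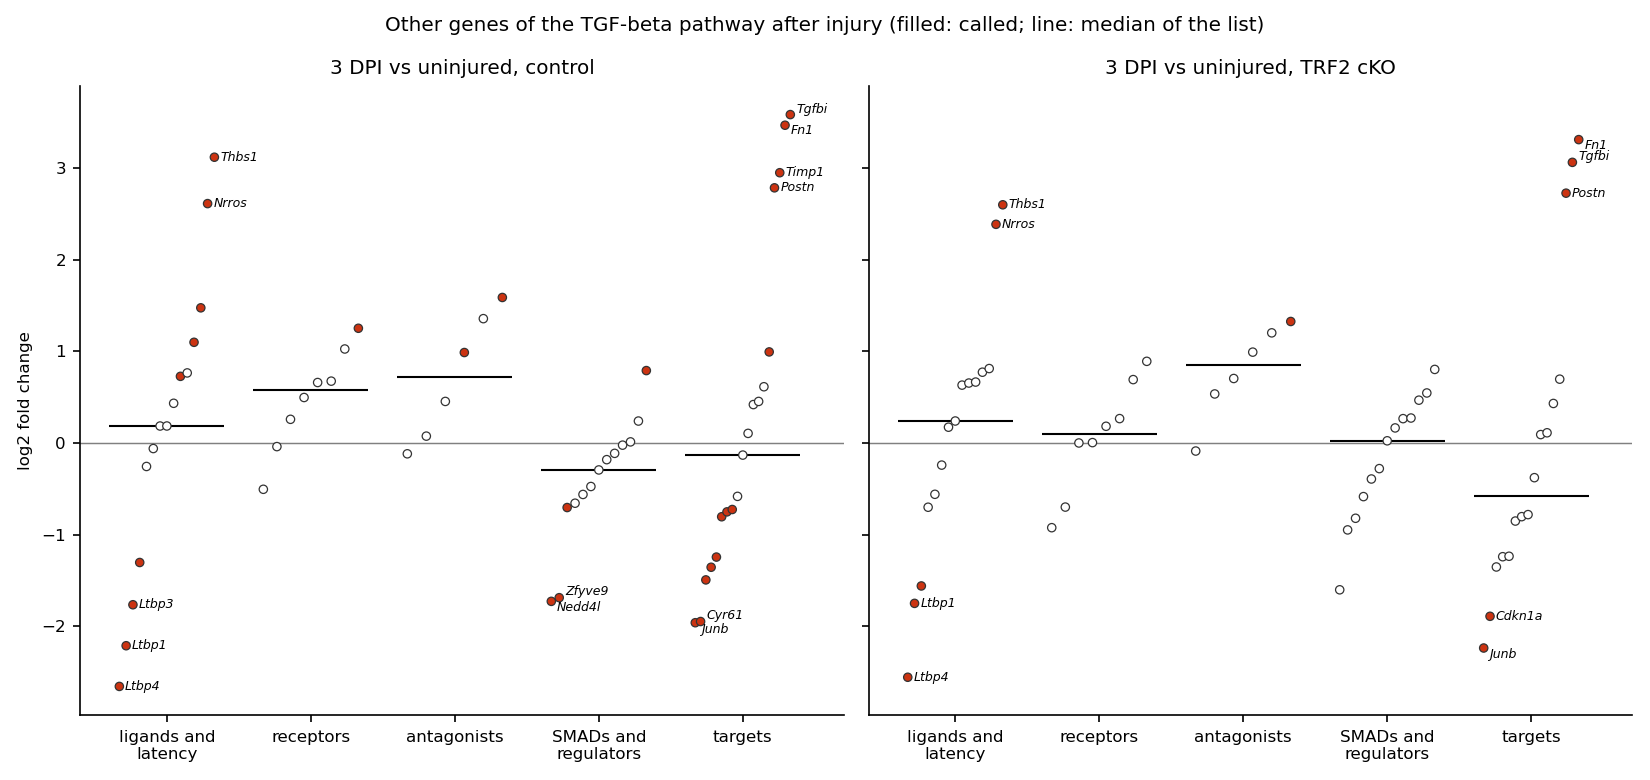
Log2 fold change at 3 DPI (vertical axis) of the genes tested in 5 lists of other TGF-beta pathway genes, in control libraries and in those labelled TRF2 knockout; filled points were called, lines are list medians and labels name called genes with a large change. Called genes lie on both sides of 0 in the ligand and latency list and in the target list, and Ltbp4, Thbs1 and Tgfbi are among the largest changes in both genotypes.

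Between the libraries labelled TRF2 knockout at 3 DPI and uninjured TRF2 MuSC-cKO libraries, 11 of 58 genes of these lists were called, against 4.04% of all genes tested. Without the third injured library the count was 17, where 1316 genes in all were called. Ltbp1, Ltbp3 and Ltbp4 fell by 1.75 ± 0.25, 1.56 ± 0.27 and 2.56 ± 0.25, and Thbs1, Nrros, Bgn, Tgfbi, Fn1 and Postn rose by 2.60, 2.39, 1.33, 3.06, 3.31 and 2.73. Nrros was called in 8 of 18 alternatives and Bgn in 10 of 19, each in 1 of 8 with a library left out. Junb fell by 2.24 ± 0.22, and Cdkn1a, the cell cycle inhibitor p21, which is a target of both TGF-beta and p53, fell by 1.89 ± 0.23. Without the third injured library all 11 were called, Ltbp1, Ltbp3 and Ltbp4 at -1.79, -1.42 and -2.68, Thbs1, Nrros, Bgn, Tgfbi, Fn1 and Postn at 2.90, 2.72, 1.57, 3.37, 3.54 and 2.94, and Junb and Cdkn1a at -2.14 and -1.96. The fibroadipogenic sum was 921.5 to 1918 CPM in uninjured TRF2 MuSC-cKO libraries and 1790 to 3926 CPM in those labelled TRF2 knockout at 3 DPI, with 0 of 7 genes called. Without the third injured library the latter range was 1985 to 3926 CPM, above every uninjured library. The part of these markers, and of the higher myeloid and lower MuSC markers of this comparison, in the values of the 11 genes was not tested. With the name code as a term, Junb alone of the 11 was called (-2.45 ± 0.36, adjusted p = 0.018).

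Between genotypes in uninjured MuSCs, 6 of 59 genes of these lists were called, 3 in each direction, against 3.22% of all genes tested (0.584% higher and 2.63% lower). Cdkn1a rose by 2.37 ± 0.20 (5.15-fold, adjusted p = 3.5e-11), from 87.3 to 125 CPM in control to 432 to 579 CPM in TRF2 MuSC-cKO libraries. Ltbp2 and Dcn rose by 1.45 ± 0.34 and 1.20 ± 0.25, and Ltbp2 was called in 13 of 19 alternatives. Cyr61 fell by 1.22 ± 0.20, Fstl1, a secreted follistatin-like protein, by 1.13 ± 0.20 and Ltbp1 by 0.71 ± 0.19 (adjusted p = 0.0199), the last a call that held in 1 of 8 analyses with 1 library left out. When all 16 libraries shared a fit, 1 of these 6 calls was left, and 1 also in the second deposited table. With the name code as a term none was called (0 of 6 by edgeR), where Cdkn1a had 2.31 ± 0.61 (adjusted p = 0.991) and Cyr61 was at 0.48. In that fit 6 of the 61 genes of the lists were at an unadjusted p under 0.05, against 4.96% of all genes. Of the called genes above, Cdkn1a, Ltbp1 and Dcn were among them, and Ltbp2, Fstl1 and Cyr61 were not. The part of the MuSC, fibroadipogenic and other marker sums that moved between uninjured genotypes in these values was not tested. At 3 DPI none of the listed genes was called between genotypes (0 of 60 tested by edgeR). Of the interaction, Cdkn1a alone was called (-2.40 ± 0.32, adjusted p = 0.000944, and -2.61 without the third library labelled TRF2 knockout, 2.98e-06), with 138 ± 17.8 CPM in the libraries labelled TRF2 knockout against 154 ± 39.7 CPM in control libraries at 3 DPI. With the name code as a term this interaction was -2.30 ± 0.53 (adjusted p = 0.717), not called.

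For the 7 genes called in at least 1 comparison, the genes of most similar pattern were found by the root mean square difference of centred log2 CPM over the 16 libraries, among 12214 genes whose mean was 4 log2 CPM or more. Nearest to Tgfbr3 were Abca8a (0.21), Notch3 (0.25) and Ier2 (0.26), set against a standard deviation of Tgfbr3 itself of 1.55. Nearest to Tgfb1 (standard deviation 1.40) were Atp6v1b2 (0.29), Esyt1 (0.32) and Creg1 (0.35), and nearest to Tgfb3 (1.05) were Ank1 (0.27), Il17ra (0.29) and Rbfox2 (0.30). Nearest to Smad3 (0.78) were Hunk (0.25), Tcaf2 (0.27) and Pdzd2 (0.27). Tgfb2, Tgfbr1 and Acvr2b were closest to Ankrd10 (0.40), Coro1b (0.28) and Map3k6 (0.37).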

How the data were processed

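RNA of sorted MuSCs was measured in 16 libraries (4 per group). Per the labels and the study's methods, ribosomal RNA was removed from the low-input RNA, and random-primed stranded libraries with molecular identifiers were prepared; the use of the identifiers in counting is not given in the sources used here. The submitters' processing notes name Trim Galore 0.6.7, STAR 2.6.1d and Salmon 1.5.2, and the build was GRCm38. The authors deposited 2 tables of estimated counts per gene, the second holding abundance per transcript length rescaled to each library's total. The first was rounded and used for the main tests, and the second, divided by the library total without TMM factors, for levels between genes and, rounded, as an alternative in the tests.

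Genes with low counts were removed by edgeR's filter (edgeR 4.0.16, R 4.3.3), libraries were scaled by TMM, and each comparison was fitted on its own groups with the quasi-likelihood test and Benjamini-Hochberg adjustment over all genes tested. A call needed an adjusted p under 0.02, the authors' threshold, and a fold over 1.5. SE is the standard error of the log2 fold change, and CPM uses TMM-scaled library sizes. Totals of 620506 to 1351130 counts per library limit the precision of low genes. Alternatives were limma 3.58.1 (robust, and voom), DESeq2 1.42.0, other scaling, filters and thresholds, all 16 libraries in one fit, a replicate block, the second table, libraries that share a name code, each library left out and, added after the data were seen and not among the 19 or 26 alternatives counted in the text, the name code as a term. The code was tested on simulated data with the spread of each pair of groups. Between uninjured genotypes, 20.2% of genes given a log2 difference of 1 were recovered, and 81.1% of those given 2.

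Genes were named by rule: the 10 genes, Terf2, every gene of the 5 pathway lists called in any comparison, the gene of highest mean level in each list, and, for each of the 10 called at least once, the 3 genes of most similar pattern. An item that the rule would name is not reported here. The 10 genes and the lists were chosen with earlier results of these data known.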

Additional observations from a re-analysis of the deposited data

Results flagged for a closer look

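Of 136 sets of 4 libraries examined, 7 held a library far from the other 3 by Dixon's criterion, and chance gives about 1 in 20. The third library labelled TRF2 knockout at 3 DPI held the lowest Tgfbr1 (37.2 CPM) and the lowest Smad7 (9.92 CPM) of its group. Tgfb2 was far above the rest in the third uninjured TRF2 MuSC-cKO library (103.1 CPM), and Smad2 in the first (153.9 CPM). Smad2 was far below the rest in the first control library at 3 DPI (55.6 CPM). The summed ligand and latency list was 3960 CPM in the fourth uninjured control library, above the other 3, and the summed receptor list was 365 CPM in the third uninjured TRF2 MuSC-cKO library, apart from its group.

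For Cdkn1a the difference between libraries labelled TRF2 knockout and control libraries was not the same at 3 DPI as in uninjured MuSCs, the interaction being -2.40 ± 0.32 on the log2 scale (adjusted p = 0.000944, edgeR's interaction term), and -2.30 with the name code as a term (adjusted p = 0.717). At 3 DPI Terf2 did not follow these labels, and the summed myeloid markers were 1951 to 5859 CPM; the part of either in this value was not tested.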

How the results depend on the processing

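Tgfb1, Tgfb2, Tgfb3, Tgfbr3 and Smad3 were called after injury in control MuSCs in all 19 alternatives other than the name code as a term, and Tgfb1 and Tgfbr3 also between injured and uninjured libraries labelled TRF2 knockout. Under alternatives other than leaving out a library, 1135 values kept direction and call, 50 lost the call, 21 gained it, 23 changed sign and 32 counts moved; with a library left out these were 936, 54, 7, 25 and 26. Low counts limit Acvr2b and Timp1. The cause of the changes below was not tested.

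The name code as a term was added after the data were seen and is not in the counts above. It gave 0 calls and 0 pathway genes between uninjured genotypes, 0 and 0 in the interaction, 1485 calls with 4 of the 10 genes and 17 pathway genes after injury in controls, and 37 with 1 and 1 in libraries labelled TRF2 knockout. Signs changed for Tgfb1 (-0.091), Tgfbr3 (0.10), Smad2 (-0.44) and Cyr61 (0.48) between uninjured genotypes, Tgfbr2 (0.18), Smad2 (-0.15) and Terf2 (-0.17) at 3 DPI, Smad2 (0.057) and Smad7 (0.045) after injury in controls, Smad2 (0.19) in libraries labelled TRF2 knockout, and Tgfbr3 (-0.16) and Smad2 (0.27) in the interaction.

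Between uninjured genotypes, 452 genes were called, 82 with all 16 libraries in one fit, 17 in the second table and 711 at an adjusted p under 0.05. Of the 10 genes, 1 was called by limma's robust test, limma-voom, median-of-ratios scaling, a minimum of 10 counts or the block, and 2 by DESeq2, without a filter or at 0.05. Pathway calls were 1 in one fit and 1 in the second table. Between genotypes at 3 DPI, limma's robust test called 1 gene, DESeq2 22, one fit 3 and the shared name code 1. After injury in controls, one fit called 1595 genes and 19 pathway genes, and Terf2 passed with limma (-0.68), DESeq2 (-0.80), median-of-ratios (-0.80), the second table (-0.85) and the 0.05 threshold (-0.75). After injury in libraries labelled TRF2 knockout, calls were 1251 (limma, with 4 of the 10 genes), 993 (DESeq2), 1204 (one fit) and 283 (second table). Interaction calls were 79 (limma, with 2 pathway genes), 1 (limma-voom), 24 (DESeq2), 8 (minimum of 10 counts) and 1 (second table).

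Same-numbered libraries correlated at -0.11 to 0.111 in their deviations, so the numbers do not pair them. With the replicate block, 536 genes were called between uninjured genotypes, 0 at 3 DPI, 2837 after injury in controls, 364 in those labelled TRF2 knockout and 1 in the interaction, and Smad7 at 3 DPI was -0.12.

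Small log2 differences changed sign. Between uninjured genotypes these were Acvr2b (0.093, library size) and Smad2 (-0.093, limma). At 3 DPI they were Tgfbr2 (0.090 limma, 0.070 library size, 0.17 name code), Smad2 (-0.13 limma, -0.16 name code), Smad7 (-0.24, voom) and Terf2 (-0.18, name code). After injury in controls they were Tgfbr2 (-0.047 limma, -0.034 DESeq2 and median-of-ratios, -0.028 one fit, -0.0065 no filter, -0.072 second table) and Smad7 (0.076 limma and minimum of 10 counts, 0.032 voom, 0.13 library size). In the interaction they were Tgfbr3 (-0.093 library size, -0.049 no filter) and Smad2 (0.076, limma).

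Leaving out each library in turn gave 259 to 574 calls between uninjured genotypes, 0 to 16 at 3 DPI, 2618 to 3344 after injury in controls, 358 to 1316 in those labelled TRF2 knockout and 1 to 13 in the interaction, with 0 to 2, 0, 6 to 7, 2 to 4 and 0 of the 10 genes and 4 to 8, 0, 24 to 29, 9 to 17 and 1 pathway genes. The highest counts in the last 2 comparisons and at 3 DPI came without the third library labelled TRF2 knockout. Terf2 ran from -0.77 to -0.46, 0.13 to 0.70, -0.85 to -0.67, 0.02 to 0.58 and 0.82 to 1.28. Signs changed within -0.032 to 0.36 (Tgfb1), -0.73 to 0.078 (Acvr2b) and -0.17 to 0.32 (Smad2) between uninjured genotypes; -0.14 to 0.14 (Tgfbr2), -0.20 to 0.21 (Smad2) and -0.020 to 0.54 (Smad7) at 3 DPI; -0.16 to 0.071 (Tgfbr2) and -0.17 to 0.13 (Smad7) after injury in controls; and -0.15 to 0.19 (Tgfbr3), -0.017 to 0.87 (Acvr2b) and -0.32 to 0.34 (Smad2) in the interaction.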
